A study of Mus musculus with 7 samples.

Results

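Bid and its relatives in the Bcl2 family of apoptosis regulators were followed in the livers of mice that lack C3ar1, the receptor for the complement fragment C3a. The members were the probes annotated to Bid, Bax, Bak1, Bad, Bik, Bok, Bcl2, Bcl2l1, Bcl2l11 and Mcl1. Of these 10 genes, 9 were listed, with 10 probes out of 23574, and Bax was not analysed here. Bcl2l11 had 2 probes, called a and b, and each of the others had 1. The livers came from 3 C3ar1-/- mice, numbered 2 to 4 in the labels, and from 4 wild-type littermates, numbered 1 to 4, all on chow diet. Strain, sex, age, the deleted part of C3ar1 and the cells that lost it are not given in the sources used here. Each 2-colour array compared 1 liver with a shared pool made from the livers of 6 wild types, and the deposited values are log ratios of liver and pool. They were read as log10 of liver over pool, the likely direction, since each title puts the pool before the mouse. Neither the base nor the direction is stated, and all signs below would flip with the direction. A log ratio shows how a gene differs from the pool but not how strongly it is expressed, so neither the tissue label nor the order of family members by level could be checked.

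Proteins of the Bcl2 family decide whether the outer mitochondrial membrane is opened during apoptosis. The effectors Bax and Bak1 form the openings, guardians such as Bcl2, Bcl2l1 and Mcl1 hold them back, and BH3-only proteins such as Bid, Bcl2l11, Bad and Bik tip the balance toward death. Bid connects death receptors with mitochondria, since caspase-8 cleaves it to a fragment that moves to the mitochondrial membrane. Hepatocytes are known to need this Bid step for death through the receptor Fas, and to depend on Bcl2l1 and Mcl1 for survival.

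The arrays' medians ran from 0.0054 to 0.0139 in the knockouts and from -0.0008 to 0.0075 in the wild types. The SD across probes was 0.0975 in knockout liver 2, while the other 6 arrays had 0.0466 to 0.0676. The single C3ar1 probe did not separate the genotypes, with 0.0042 to 0.0514 in the knockouts and -0.0318 to 0.0264 in the wild types. The arrays thus do not show the loss of C3ar1 by themselves. That probe checks nothing if it lies outside the deleted part, and its signal over background was not analysed. The number of arrays limits the precision. In whole liver, fewer cells of a type and less RNA per cell cannot be told apart.

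Bid was the member whose values set the knockouts apart, and its promoter is shown first. RefSeq promoter windows of GRCm38.p6, from 250 bases before a gene's start to 50 after it, were found for 8 of the 9 measured genes. Beside Bid stand Bak1, the effector that cleaved Bid activates, Mcl1, a guardian of Bak1, and Bcl2, the guardian whose window held the most matches to the motif counted here. Capitals mark the GC box GGGCGG on either strand, a motif bound by Sp1-type factors. The windows are chr6:120916775-120917074 for Bid, chr17:27028578-27028877 for Bak1, and chr1:106714241-106714540 for Bcl2, all on the minus strand, and chr3:95658471-95658770 on the plus strand for Mcl1.
Bid: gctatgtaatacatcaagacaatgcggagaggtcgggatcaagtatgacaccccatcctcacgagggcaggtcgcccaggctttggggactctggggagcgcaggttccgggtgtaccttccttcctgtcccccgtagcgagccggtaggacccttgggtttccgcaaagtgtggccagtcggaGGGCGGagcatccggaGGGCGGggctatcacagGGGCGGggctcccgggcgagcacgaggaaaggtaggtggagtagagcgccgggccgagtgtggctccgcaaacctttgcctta
Bak1: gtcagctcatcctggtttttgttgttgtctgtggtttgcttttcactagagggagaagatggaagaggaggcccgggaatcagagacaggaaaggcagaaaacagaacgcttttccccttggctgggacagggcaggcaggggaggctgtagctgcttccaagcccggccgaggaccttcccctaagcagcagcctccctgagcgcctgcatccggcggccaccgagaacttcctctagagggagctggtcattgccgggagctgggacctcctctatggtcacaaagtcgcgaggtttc
Mcl1: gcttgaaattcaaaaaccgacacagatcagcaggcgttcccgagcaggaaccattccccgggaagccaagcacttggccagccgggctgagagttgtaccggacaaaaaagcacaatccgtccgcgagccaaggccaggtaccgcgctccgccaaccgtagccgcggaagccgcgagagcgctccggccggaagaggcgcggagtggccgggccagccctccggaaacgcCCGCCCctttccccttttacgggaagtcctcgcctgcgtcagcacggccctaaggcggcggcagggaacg
Bcl2: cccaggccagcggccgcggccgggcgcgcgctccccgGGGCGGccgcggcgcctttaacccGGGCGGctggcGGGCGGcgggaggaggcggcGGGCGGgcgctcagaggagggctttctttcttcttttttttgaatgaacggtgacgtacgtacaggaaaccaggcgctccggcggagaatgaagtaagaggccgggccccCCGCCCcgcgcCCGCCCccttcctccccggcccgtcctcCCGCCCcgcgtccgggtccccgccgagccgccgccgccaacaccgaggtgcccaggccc
The Bid window held 3 matches, all on the strand shown, and its relatives held both more and fewer. The Bcl2 window held 7, 1 of the 2 Bad windows held 4 and each of the 2 Bcl2l11 windows held 3. The Mcl1 and Bok windows held 1 each, while the windows of Bak1 and Bcl2l1 and the other Bad window held 0. Among all 32851 windows of this length 35.7% held at least 1 match, and 10.7% held 3 or more. GC content was 63.3% for Bid, 58.3% for Bak1, 65.7% for Mcl1 and 76.0% for Bcl2, against a median of 52.7% over all windows. Of the 12 windows of the 8 genes, 7 held a match. The matches describe the letters of the window only.

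Bid read lower than the pool in all 3 knockout livers, at -0.2695, -0.2181 and -0.2310 in livers 2, 3 and 4. In the wild-type livers 1 to 4 it read -0.0503, 0.0137, 0.0288 and -0.1149. Every knockout liver lay below every wild-type liver, and wild-type liver 4 was the nearest to the knockouts. Bid averaged -0.240 ± 0.0267 over the knockouts (SD, n = 3) and -0.0307 ± 0.0658 over the wild types (SD, n = 4). The difference of -0.209 ± 0.0364 (SE, knockout minus wild type) corresponds to a signal 1.62-fold lower in the knockouts if the base is 10, with a 95% interval from 1.33 to 1.97, and 1.16-fold lower if it is 2. Bid was chosen by this knockout against wild-type difference in an earlier reading of the same arrays, and the other members by their family, so the difference is a description and was not tested here. The interval makes no allowance for that choice and is no test either. It rests on 1 probe, with no other probe of the gene to set beside it.

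In these few mice, the wild types differed more among themselves on Bid than the knockouts did. The SD of Bid over the knockouts was larger than that of 40.4% of all probes, while its SD over the wild types was larger than that of 85.0%. The wild types spanned 0.144 on the log10 scale and the knockouts 0.0514. A range grows with the number of mice, here 4 and 3, and the difference in spread was not tested. Leaving out wild-type liver 4 gave a difference of -0.237, and leaving out knockout liver 2, whose array was the most spread, gave -0.194.

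**Figure D1:**
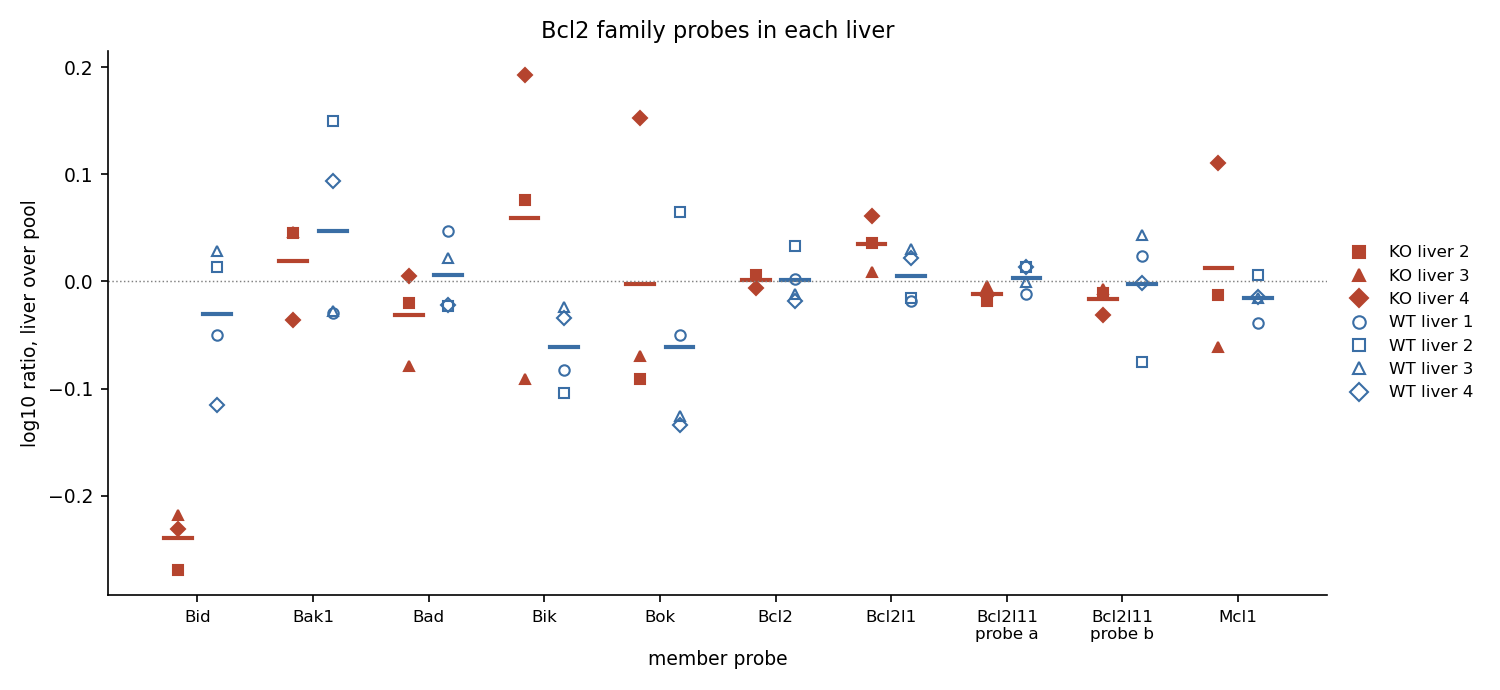
Log10 ratio of liver over pool for the 10 member probes, with knockout livers as filled red symbols left of the wild-type livers as open blue symbols, and bars at the group means. The knockout livers lie below all wild-type livers for Bid, between -0.2695 and -0.2181, and the groups overlap for the other 9 probes.

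Over all probes, limma called 1 of 23574 at an adjusted p under 0.05, which is 0.00424%, and 0 of the 10 member probes. Groups without overlap were found in 1 of the 10 member probes, Bid, and in 5.26% of all probes. Of the 9 other member probes 0 lay below an unadjusted p of 0.05, against 4.47% of all probes, and 5 read higher and 4 lower in the knockouts. The median difference was -0.00680 over the 10 member probes and 0.00555 over all probes. All 9 overlapped between the genotypes, and their adjusted p values ran from 0.884 to 0.999 (limma). For 7 of these 9 probes the 95% interval of the difference lay within the size of the Bid difference in either direction, and the exceptions were Bik and Bok. Bid was chosen by the size of that difference, so this comparison is a description and does not set the other members apart from Bid.

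Among the BH3-only members other than Bid, Bik had the widest range. Bik, known for acting at the endoplasmic reticulum, read 0.0757, -0.0914 and 0.1923 in knockout livers 2, 3 and 4, and -0.0824, -0.1039, -0.0239 and -0.0342 in wild-type livers 1 to 4. Knockout livers 2 and 4 lay above all wild types, while knockout liver 3 lay below all but wild-type liver 2. The difference was 0.120 ± 0.0606 (SE), or 1.32-fold in base 10, with an interval from 0.953 to 1.82 (limma, adjusted p = 0.884). Leaving out knockout liver 4 gave 0.0533 and leaving out knockout liver 3 gave 0.195. Array weights gave 0.0345, and under them knockout liver 3 had a weight of 3.21 against 0.438 for knockout liver 2.

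Bad, a BH3-only protein held inactive by phosphorylation under survival signals, read -0.0199, -0.0791 and 0.0054 in knockout livers 2 to 4, and 0.0471, -0.0231, 0.0221 and -0.0216 in wild-type livers 1 to 4. Knockout liver 3 was the lowest and the other knockouts lay within the wild types. The difference was -0.0373 ± 0.0280 (SE). It was -0.0134 when knockout liver 3 was left out, -0.0237 when wild-type liver 1 was, and -0.0681 with array weights. Bcl2l11 encodes Bim, which binds all guardians. Its probe a ranged from -0.0183 to -0.0040 in the knockouts and from -0.0121 to 0.0136 in the wild types, and probe b from -0.0311 to -0.0066 in the knockouts and from -0.0756 to 0.0432 in the wild types. Both probes overlapped between the genotypes, and their differences of -0.0153 ± 0.0163 and -0.0137 ± 0.0295 (SE) had the same sign. For probe a the interval ran from 0.885-fold to 1.05-fold, and for probe b from 0.827-fold to 1.14-fold, in base 10. The SD of probe a was larger than that of 4.55% of probes in the knockouts and of 6.75% in the wild types. Its signal over background was not analysed, so its narrow interval need not mean an unchanged gene. Over the alternatives the difference of probe a ran from -0.0205 to -0.00915 and that of probe b from -0.0381, without wild-type liver 2, to 0.00147, without wild-type liver 3.

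The effector Bak1 read 0.0455, 0.0460 and -0.0355 in knockout livers 2 to 4, and -0.0290, 0.1498, -0.0273 and 0.0934 in wild-type livers 1 to 4. Knockout liver 4 was the lowest, and wild-type livers 2 and 4 were the highest. The difference was -0.0281 ± 0.0490 (SE), and 0.0063 without wild-type liver 2. Bok, an effector-like member that can act without Bax and Bak1, read -0.0911, -0.0691 and 0.1526 in knockout livers 2 to 4, and -0.0500, 0.0646, -0.1258 and -0.1344 in wild-type livers 1 to 4. Only knockout liver 4 lay above the wild types, and the other knockouts lay within them. The difference was 0.0589 ± 0.0704 (SE), and -0.0187 without knockout liver 4. The SD of Bok over the mice was larger than that of 95.8% of probes in the knockouts and of 94.1% in the wild types, and for Bik these shares were 96.5% and 58.7%.

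The guardian Bcl2 had the smallest difference of the 10 member probes. It read 0.0065, 0.0049 and -0.0063 in knockout livers 2 to 4, and 0.0027, 0.0329, -0.0115 and -0.0178 in wild-type livers 1 to 4. All knockouts lay within the wild types, and the difference of 0.000125 ± 0.0186 (SE) has an interval from 0.905-fold to 1.11-fold in base 10. The SD of Bcl2 was larger than that of 4.31% of probes in the knockouts and of 27.1% in the wild types. Signal over background was not analysed, so the narrow interval need not mean an unchanged gene. The sign of the Bcl2 difference turned to -0.00454, -0.00320 and -0.00389 with arrays centred on their median, quantile normalized or scaled. Bcl2l1, which encodes Bcl-xL, read 0.0358, 0.0088 and 0.0608 in the knockouts, and -0.0178, -0.0154, 0.0302 and 0.0217 in wild-type livers 1 to 4. Knockout livers 2 and 4 lay above all wild types and liver 3 lay among them. The difference was 0.0305 ± 0.0216 (SE), with an interval from 0.955-fold to 1.20-fold, and it was 0.0176 when knockout liver 4 was left out and 0.0150 with array weights. Mcl1, a short-lived guardian, read -0.0126, -0.0608 and 0.1105 in the knockouts, and -0.0391, 0.0059, -0.0156 and -0.0144 in wild-type livers 1 to 4. The knockouts held both the highest and the lowest value. The difference was 0.0282 ± 0.0387 (SE), and turned to -0.0209 without knockout liver 4 and to -0.00628 with array weights.

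Knockout liver 4 gave the highest value of all 7 livers in 4 of the 9 member probes other than Bid, namely Bik, Bok, Bcl2l1 and Mcl1. In the same liver the mean log ratio of 11 macrophage and Kupffer cell markers was 0.119, against -0.115 and -0.171 in knockout livers 2 and 3 and -0.232 to -0.0713 in the wild types. The mean of 8 neutrophil markers was 0.0521 in knockout liver 4, -0.0415 and -0.0551 in knockout livers 2 and 3, and -0.0369 to -0.00649 in the wild types. That mean in knockout liver 4 rests mostly on S100a8 and S100a9, at 0.1511 and 0.2387. The other neutrophil markers ran there from -0.0881 for Camp, its lowest value of the 7 livers, to 0.0520 for Cxcr2. The part of macrophages and neutrophils in the values of knockout liver 4 was not tested. For Bid, knockout liver 4 lay between the other knockouts, and the difference without it was -0.213.

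The means of each of 7 marker lists, for hepatocytes, macrophages, endothelial cells, stellate cells, bile duct cells, lymphocytes and neutrophils, overlapped between the genotypes. Among single markers the groups did not overlap in 4 of 12 endothelial markers (Stab1, Vwf, Eng and Egfl7, all higher in the knockouts), in 3 of 11 lymphocyte and NK cell markers (Cd3e and Cd4 higher, Klrb1c lower), in 1 of 8 neutrophil markers (Elane, higher) and in 0 markers of the other 4 lists, against 5.38% of all genes. At an unadjusted p under 0.05 stood these 4 endothelial and 3 lymphocyte markers, 1 of 11 macrophage markers and 1 of 11 stellate cell markers, against 4.79% of all genes, and 0 markers were called. All 11 macrophage markers had a higher group mean in the knockouts, as did 56.7% of all genes. Their mean was 0.119 in knockout liver 4. Knockout livers 2 and 3, at -0.115 and -0.171, lay within the wild types, at -0.232 to -0.0713. The single markers above were named after their values were seen, and their part in the Bid difference was not tested. The mean of 12 endothelial markers was -0.0224 to 0.0420 in the knockouts and -0.0595 to 0.0101 in the wild types. Of these markers 10 read higher in the knockouts and 2 lower. For hepatocytes, the mean of 12 markers ran from -0.00471 to 0.102 in the knockouts and from -0.0509 to 0.0605 in the wild types.

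The other genes of the family were read on 1 value per gene, in a fit over 16462 genes in which 1 gene was called (0.00607%). Of 15 listed genes 12 were measured and 0 were called, 4 read higher and 8 lower in the knockouts, and the median difference was -0.0178, against 0.00543 over all genes. At an unadjusted p under 0.05 stood 1 of the 12, against 4.79% of all genes, and the groups did not overlap in 1 of the 12, against 5.38%. Both counts are Bcl2l2, which encodes the guardian Bcl-w. Bcl2l2 read -0.0564, -0.0459 and -0.0676 in knockout livers 2 to 4, and 0.0194, 0.0191, 0.0102 and -0.0416 in wild-type livers 1 to 4. As for Bid, wild-type liver 4 was the nearest to the knockouts. The difference was -0.0584 ± 0.0208 (SE), or 1.14-fold lower in base 10 (limma, adjusted p = 0.872).

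The remaining genes of this list that had the smallest p values were Hrk, Bnip3 and Bcl2l13. The BH3-only gene Hrk differed by -0.0258 ± 0.0174 (SE). Bnip3, a mitochondrial protein of mitophagy and hypoxia, ran from -0.3125 to 0.0592 in the knockouts and from -0.1616 to 0.1346 in the wild types, with a difference of -0.118 ± 0.0958 (SE). Knockout liver 4 held the lowest value of Bnip3, and the groups overlapped over most of their range. The p53-induced BH3-only genes Bbc3 and Pmaip1, which encode Puma and Noxa, differed by 0.00346 ± 0.0281 and -0.0417 ± 0.0612 (SE), and Bmf by 0.0566 ± 0.0793. These last 3 genes were named after their values were seen.

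**Figure D2:**
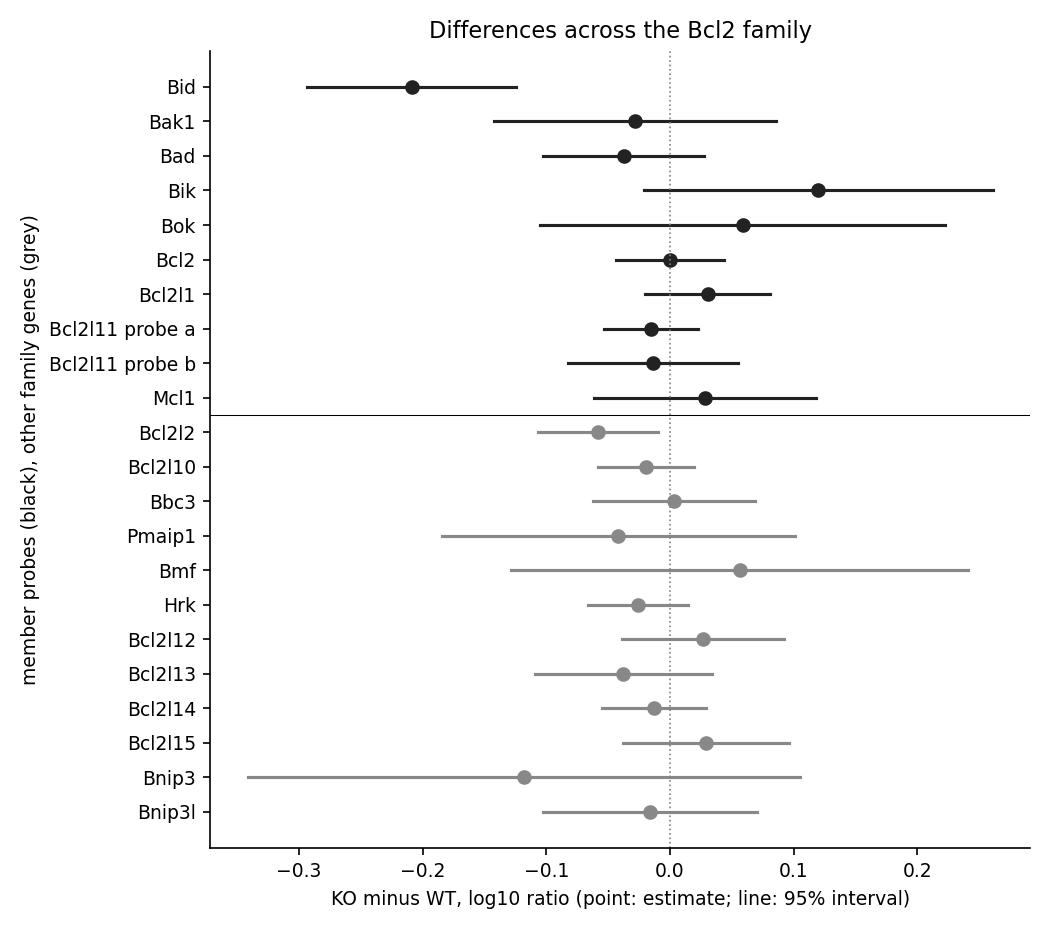
Knockout minus wild-type difference in log10 ratio, with its 95% interval, for the 10 member probes (black) and 12 other genes of the family (grey). Bid, which was chosen by this difference, stands at -0.209. Of the others the interval of Bcl2l2 lies below 0 and the rest include 0, with wide intervals for Bnip3 and Bmf.

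Around the family, 4 further lists covered the receptors above Bid, the proteases, kinases and mitochondrial proteins that act on it, the caspases below it and regulators of the family. Together with the other family genes they held 69 measured genes of 78 listed. Of these 0 were called, 34 read higher and 35 lower in the knockouts, and the median difference was -0.000025. Among all genes 56.7% read higher in the knockouts. At an unadjusted p under 0.05 stood 1 of the 69, Bcl2l2, and it was also the 1 gene of the 69 without overlap.

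In the death receptor pathway 0 of 14 measured genes were called, 8 read higher and 6 lower, with a median of 0.0154. The receptor Fas read -0.1878, -0.2274 and -0.1275 in knockout livers 2 to 4, and 0.1720, -0.1928, -0.0686 and -0.1108 in wild-type livers 1 to 4. Wild-type liver 2 lay among the knockouts and wild-type liver 1 stood far above the rest. The difference of Fas was -0.131 ± 0.0795 (SE), and its ligand gene Fasl differed by -0.0524 ± 0.0259. Cflar, which encodes the caspase-8 inhibitor FLIP, differed by -0.111 ± 0.0551, and the TNF receptor gene Tnfrsf1a by 0.0580 ± 0.0302. Casp8 itself, named after its value was seen because its product cleaves Bid, averaged 0.0074 over the knockouts and -0.0245 over the wild types.

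The list of proteases that can cleave Bid and of its mitochondrial partners also held the kinase genes Mapk8 and Atm. Of its 12 genes 0 were called, 5 read higher and 7 lower, with a median of -0.0115. Those of smallest p were the cathepsin genes Ctsb, at 0.0686 ± 0.0502 (SE), and Ctsl, at -0.0413 ± 0.0514, and the outer membrane channel genes Vdac2, at -0.0517 ± 0.0404, and Vdac3, at -0.0331 ± 0.0388. Vdac2 is known to hold Bak1 at the membrane. Ctsb was highest in knockout liver 4, at 0.122, the liver with the highest macrophage marker mean. The part of macrophages in that value was not tested.

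Among caspases and mitochondrial death effectors 0 of 14 were called, 5 read higher and 9 lower, with a median of -0.0105. Cycs, which encodes cytochrome c, differed by -0.0623 ± 0.0288 (SE), with -0.0508, 0.0202 and -0.0764 in knockout livers 2 to 4 and -0.0072 to 0.0670 in the wild types. Knockout livers 2 and 4 lay below all wild types and knockout liver 3 among them. The executioner caspase gene Casp6 differed by -0.0953 ± 0.0492, and the inhibitor of apoptosis genes Birc2 and Birc3 by -0.0486 ± 0.0263 and -0.0648 ± 0.0396. Casp6 was lowest in knockout liver 2, at -0.236, against -0.0893 to 0.0013 in the wild types.

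Among regulators of the family's expression and stability 0 of 17 were called, 12 read higher and 5 lower, with a median of 0.0298. The survival kinase gene Akt1 differed by 0.0596 ± 0.0272 (SE), the cell cycle transcription factor gene E2f1 by -0.0476 ± 0.0231, the transcription factor gene Stat3 by 0.0435 ± 0.0294, and Fbxw7, whose product marks Mcl1 for degradation, by 0.0401 ± 0.0246. These 17 genes averaged 0.0483 in knockout liver 2, and -0.00301 and -0.0108 in livers 3 and 4 of that genotype, against -0.00701 to 0.00146 in the wild types. All genes named from these 4 lists had overlapping groups, and the smallest adjusted p in each list was 0.872 (limma).

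**Figure D3:**
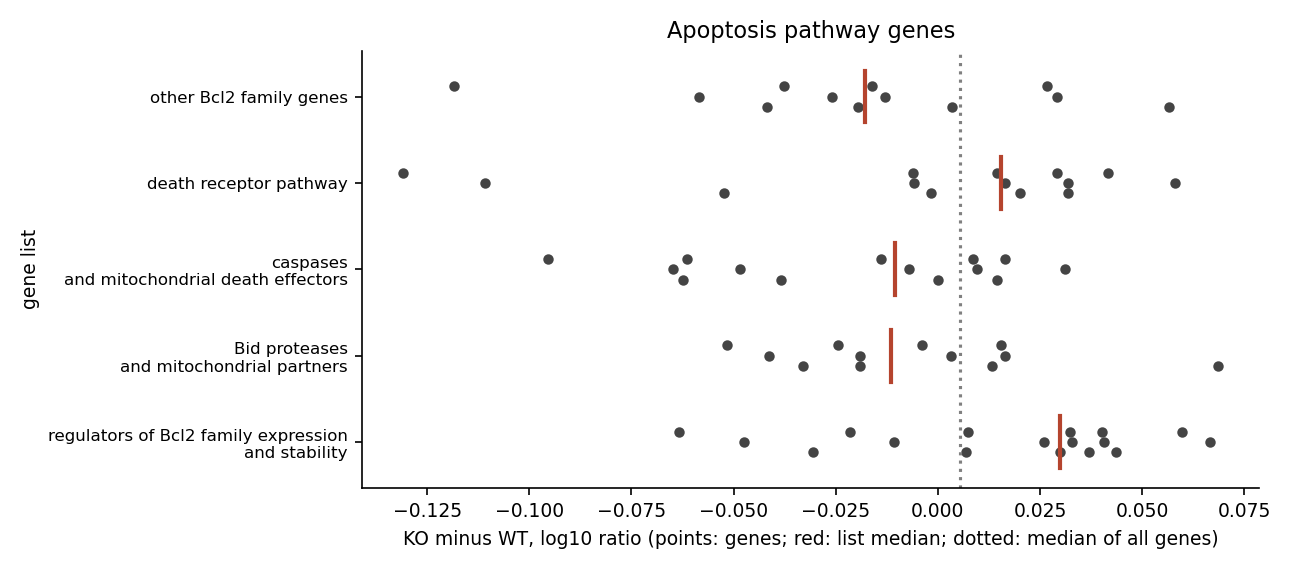
Knockout minus wild-type differences in log10 ratio for the measured genes of 5 lists around Bid, with 1 point per gene, a red bar at the list median and a dotted line at the median of all genes, 0.00543. The medians lie between -0.0178 and 0.0298, and Fas at -0.131 and Bnip3 at -0.118 are the lowest points.

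Bid lies on chromosome 6, the chromosome that also carries C3ar1, and C3ar1 is the gene 21 places from Bid in the order of measured genes (GRCm38.p6 gene table, used for order only). The immediate neighbour of Bid on the other side is Bcl2l13, which encodes a mitochondrial protein of the Bcl2 family. Bcl2l13 read 0.0541, -0.0170 and -0.0726 in knockout livers 2 to 4, and 0.0372, -0.0044, 0.0440 and 0.0262 in wild-type livers 1 to 4. Knockout liver 2 held its highest value and knockout liver 4 its lowest, and the difference was -0.0376 ± 0.0308 (SE). Mical3, the neighbour on the side of C3ar1, which encodes an actin-oxidizing enzyme, differed by 0.00827 ± 0.0204 (SE).

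Of the 20 nearest measured genes, 10 on each side, 0 were called, 13 read higher and 7 lower in the knockouts, and the median difference was 0.0111. The groups did not overlap in 3 of the 20, against 5.38% of all genes, and 1 of the 20 stood at an unadjusted p under 0.05, against 4.79%. The 3 were Atp6v1e1, Slc25a18 and Cecr2, at places 2, 3 and 4 from Bid on the side away from C3ar1. Atp6v1e1, a subunit gene of the vacuolar proton pump, read -0.2332, -0.0626 and -0.1413 in knockout livers 2 to 4, and 0.0258, 0.0150, -0.0250 and -0.0459 in wild-type livers 1 to 4. Its difference was -0.138 ± 0.0401 (SE), or 1.37-fold lower in base 10 (limma, adjusted p = 0.872). Slc25a18, a mitochondrial glutamate carrier gene, and Cecr2, a chromatin remodelling gene, read higher in the knockouts by 0.0417 ± 0.0187 and 0.0288 ± 0.0184 (SE).

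The other genes of this stretch overlapped between the genotypes. Away from C3ar1, Hdhd5 differed by 0.0292, Tmem121b by 0.0369, the interleukin-17 receptor gene Il17ra by 0.0283, Ccdc77 by -0.0182, B4galnt3 by -0.00112 and Ninj2 by 0.00524. Toward C3ar1, the peroxisome gene Pex26 differed by 0.0672, Tuba8 by -0.0138, the interferon-induced Usp18 by 0.0198, the transporter genes Slc6a13 and Slc6a12 by 0.00667 and 0.0618, and Iqsec3 by 0.0140. The macroglobulin-type genes A2m, Mug1 and Mug2 at the end of the stretch differed by -0.00687, 0.0192 and -0.0760. Lower and higher readings stood side by side in this stretch, which ends before C3ar1. The part of the position near C3ar1 in the Bid difference was not tested.

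**Figure D4:**
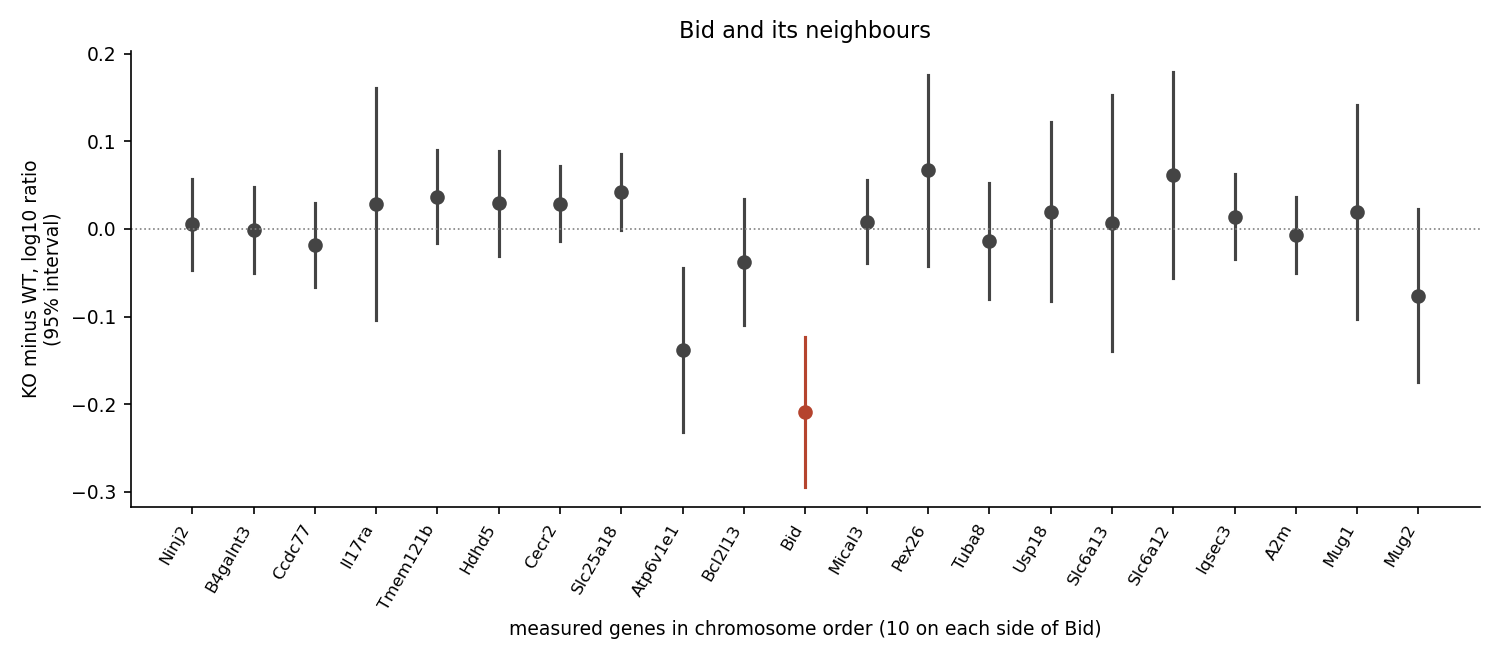
Knockout minus wild-type difference in log10 ratio with its 95% interval for Bid (red) and the 10 nearest measured genes on each side, in chromosome order with C3ar1 lying beyond the right end. Bid, which was chosen by this difference, stands at -0.209. Of the 20 neighbours, Atp6v1e1 at -0.138 has an interval below 0 and the others have intervals that include 0.

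The probes most like Bid were found by the root mean square difference between 7 values, each probe centred on its own mean. The 5 nearest named probes were those of Dera, Rps6ka5, Fam117a, Ugdh and Kif16b, at 0.0421, 0.0470, 0.0503, 0.0513 and 0.0513 on the log10 scale. This likeness contains the difference between the genotypes, which chose Bid, and also the place of each wild-type liver, so features shared with Bid follow from the choice. Dera, the deoxyribose-phosphate aldolase gene, lies on chromosome 6 as Bid does, and the other 4 lie on chromosomes 12, 11, 5 and 2. Dera read -0.2806, -0.2656 and -0.2907 in knockout livers 2 to 4, and 0.0250, 0.0413, 0.0319 and -0.1103 in wild-type livers 1 to 4. Wild-type liver 4 was the lowest of the wild types in Dera, Rps6ka5, Ugdh and Kif16b, while in Fam117a it stood at -0.0381 beside wild-type liver 1 at -0.0387.

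None of the other members was among these 5 probes, which says little, since only 5 of 17824 named probes were taken. By the same measure Bad was the member nearest to Bid, at 0.101, with 12.7% of named probes nearer, and Bik was the farthest, at 0.190, with 98.3% of named probes nearer. Bak1 stood at 0.122, with 53.7% nearer, and Mcl1 at 0.133, with 78.1% nearer. The distance also depends on how widely a probe varies, so a nearer member need not follow Bid across the livers.

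**Figure D5:**
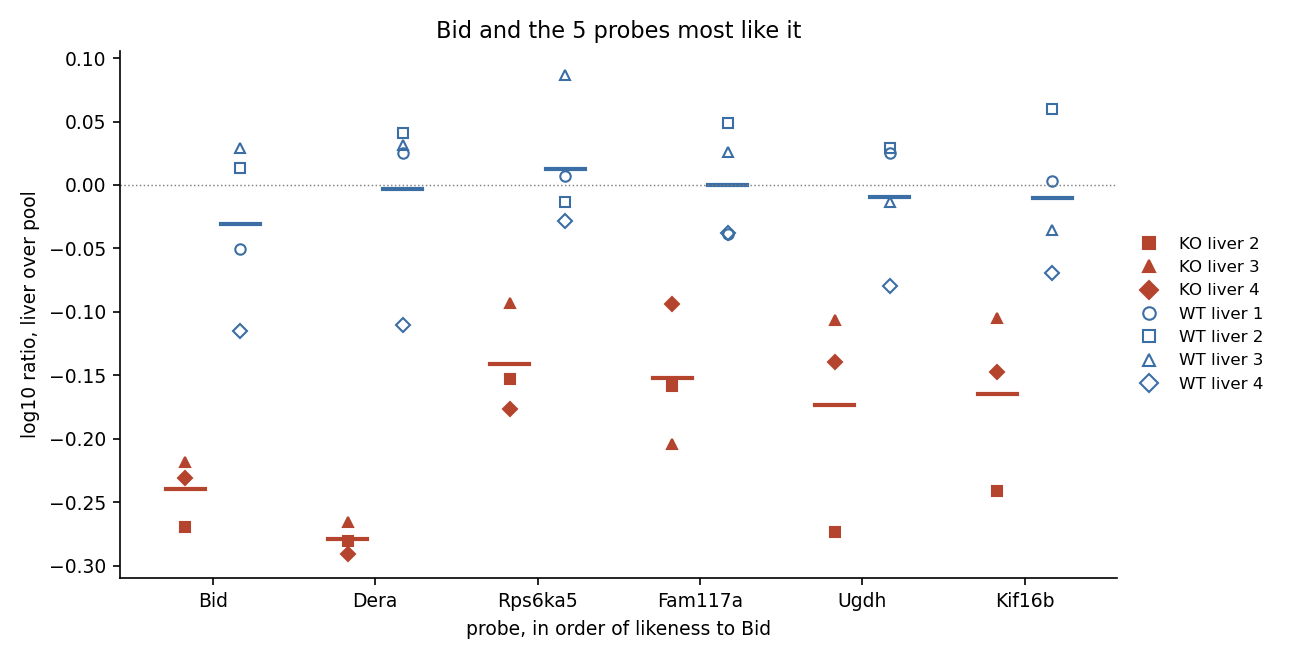
Log10 ratio of liver over pool for Bid and the 5 named probes most like it, in order of likeness, with knockout livers (filled, red) left of wild-type livers (open, blue) and bars at the means. Wild-type liver 4, the open diamond, reads -0.1149 for Bid and -0.1103 for Dera, between the other wild types and the knockouts.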

How the data were processed

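Liver RNA of 3 C3ar1-/- and 4 wild-type mice was profiled on 2-colour arrays, each against 1 wild-type pool. The deposited values are log ratios of liver and pool with no value missing, read as log10 ratios although neither the base nor the direction is stated. Base 10 was taken because base 2 would leave little spread between mice. Dyes were swapped in the profiling, per the series' design text, but the sources used here do not say how the orientations entered each deposited column, nor name the scanner, background correction or normalization. The array medians lay near 0 as deposited, and no further scaling was applied in the main setting.

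Probes were named through the platform annotation, with current symbols found through the Entrez number (17724 probes) or the accession (21), while 79 kept theirs. Probes with several symbols (50) or none listed (5700) were not named. The package limma 3.58.1 under R 4.3.3 fitted each probe (functions lmFit, eBayes, knockout minus wild type, two-sided, Benjamini-Hochberg adjustment over all 23574 probes, threshold 0.05). Gene lists and neighbours used probes averaged per symbol, 16462 in all. The steps were also run on simulated data in which all arrays had the same error, unlike the arrays here. The outcome is not given and is not used as support. Errors are SDs between mice or SEs of the fit, intervals are at 95%, and the separate mice are the replicates.

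The members and lists were chosen with earlier results of these data known, so no p adjusted over a list is given. Named genes were all members, C3ar1, up to 4 genes of smallest p in each pathway list, the 10 nearest measured genes on each side of Bid, and the 5 named probes whose centred values differ least from those of Bid. Alternatives were 3 scalings, a filter on variation, 2 variance models, array weights, a replicate block and each array left out.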

Additional observations from a re-analysis of the deposited data

Results flagged for a closer look

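Among 54 sets of 4 wild-type values examined, 3 had a value far from the other wild types by Dixon's test, where chance gives about 1 in 20. Bcl2l2 read -0.0416 in wild-type liver 4, against 0.0102 to 0.0194 in the other wild types and -0.0676 to -0.0459 in the knockouts. Fbxw7 read 0.0677 in the same liver, against 0.0161 to 0.0192 in the other wild types and 0.0296 to 0.1079 in the knockouts. The Dera probe read -0.1103 in it, against 0.0250 to 0.0413 in the other wild types and -0.2907 to -0.2656 in the knockouts. All 3 far values belong to wild-type liver 4 and lie on the side of the knockout mean, but Dera was chosen for its likeness to Bid, in which wild-type liver 4 also lies toward the knockouts, so its place among them follows from that choice. Over the 1239 probes whose groups did not overlap, the wild type nearest to the knockouts was liver 4 in 33.6%, liver 3 in 31.9%, liver 2 in 19.5% and liver 1 in 15.0%.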

How the results depend on the processing

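The difference of Bid kept its sign in all 15 alternatives, from -0.237 to -0.165 (after quantile normalization), and ran from -0.237 to -0.189 when single arrays were left out. The groups of Bid did not overlap, so leaving out 1 array could not turn the sign. The filter on variation and the 2 variance models left the estimate at -0.209. The replicate block gave -0.215, as did leaving out wild-type liver 1. The count of kept signs therefore says little. The SE of the Bid difference was 0.0770 with a trended and robust variance, against 0.0364. Member probes, pathway list genes and neighbours of Bid were called 0 times in each of the 15. Signs turned under some alternatives for Bcl2 (7 of 14 kept theirs), Mcl1 (13 of 15), Bak1 and Bok (14 of 15 each) and Bcl2l11 probe b (15 of 16), and for the other member probes none did. The moves were smaller than the SD pooled over both genotypes. With groups of this size, leaving out 1 array can never move a difference further than that, so this is no sign of stability. The count of called probes was 1 in the main setting. It was 0 after quantile or scale normalization (834 and 927 probes at an unadjusted p under 0.05) and with a trended and robust variance or an ordinary test (897 and 949), 4 with the less variable rows left out, and 0 to 3 without single arrays. Called genes numbered 1, and 0 after scale normalization, with a trended and robust variance or an ordinary test, 3 with the less variable rows left out, and 0 to 3 without single arrays. The count fell to 0 without wild-type liver 3 or knockout liver 2, 3 or 4, for probes as for genes, and the cause was not tested. With a replicate block on the shared numbers 2 to 4, 0 probes (543 at an unadjusted p under 0.05) and 0 genes were called and Bid differed by -0.215. The deviations of same-numbered arrays correlated at -0.137, -0.205 and -0.154, and 0 of 3 knockout arrays correlated best with the wild type of its own number. The labels give no more than the shared number, and 3 correlations are too few to decide whether same-numbered mice were paired. Signal over background was not analysed here, and 7 arrays limit all intervals.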
